A study of Mus musculus with 2 samples.

Results

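Mir31, the gene of the microRNA miR-31, was described here in the adrenal gland of adult male mice. It is 1 of 2202 annotated miRNA genes in the deposited tables, and it was chosen on its replicate difference: among abundant genes its level differed most between the 2 libraries. That difference is therefore given as a description, with no test. The study sequenced RNA below 30 nucleotides from 1 group of mice of the strain 5xFAD/CAST, aged 8 to 10 months, with 2 libraries labelled as biological replicates 1 and 2. The name joins 5xFAD, a transgenic line whose transgenes are driven by a neuronal Thy1 promoter, with CAST, a wild-derived inbred strain. The labels give no transgene status for these animals and no treatment, and there is no second group to compare. Both libraries come from different tissue records that point to the same donor record, so the labels do not settle whether 2 animals were used, and the spread between them may be partly technical.

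A microRNA gene is transcribed into a long precursor that is cut to a hairpin, and the hairpin is cut to a short duplex. One strand of the duplex, the mature microRNA, guides an Argonaute protein to messenger RNAs that match its seed, bases 2 to 8. Mir31 is known from blood vascular endothelium, where it holds down the lymphatic regulator Prox1, from keratinocytes and other epithelia, and from T cells, where it targets Foxp3. NF-kB signalling is known to induce it. In people its locus lies beside the tumour suppressors CDKN2A and CDKN2B and is often deleted with them.

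The mature sequences of both arms are shown to compare their seeds with those of other microRNAs. They were taken from RefSeq on GRCm38.p6, 5′ to 3′, with the seed in capitals. The 5p arm lies on the minus strand at chr4:88910614-88910635 and the 3p arm at chr4:88910577-88910599.
miR-31-5p: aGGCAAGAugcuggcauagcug
miR-31-3p: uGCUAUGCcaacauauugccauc
None of the other mature sequences among the 1738 in the RefSeq table had the seed of either arm. The seed of miR-31-5p differed by 1 base from that of miR-351-3p, miR-7074-5p and miR-7682-5p. The first of these comes from Mir351, a gene of the X-linked Mir322 cluster.
miR-351-3p: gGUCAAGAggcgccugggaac
Mir351 reached 2969 CPM in replicate 1 and 2270 CPM in replicate 2, where CPM is the reads on the strand of the gene per 1000000 such reads over all miRNA genes. Its log2 difference, replicate 2 minus replicate 1 on the log2(CPM + 1) scale, was −0.39. These counts of Mir351 do not separate its arms, so the part of miR-351-3p in them is not known. Mir7074 and Mir7682 stood below 1 CPM in both libraries. The seed of miR-31-3p differed by 1 base from that of miR-12206-5p, whose gene has no value here. It also differed by 1 base from that of miR-1251-3p, whose gene Mir1251 had 0 CPM in both libraries.

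The hairpin is shown with both arms in capitals to place them in the precursor. It spans 106 bases on the minus strand at chr4:88910557-88910662.
Mir31 hairpin: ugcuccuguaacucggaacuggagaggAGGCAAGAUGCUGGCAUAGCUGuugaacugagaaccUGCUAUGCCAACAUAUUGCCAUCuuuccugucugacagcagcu
The miR-31-5p arm takes bases 28 to 49 and the miR-31-3p arm bases 64 to 86. In the fold of lowest energy, at −48.7 kcal per mol, 17 bases of the 5p arm paired with the 3p arm, and 6 of the 7 seed bases of the 5p arm were paired. The longest run that this hairpin shares with any other annotated miRNA hairpin is 12 bases, with Gm26113. Mir31 therefore shares no run of 20 bases with another hairpin, the length used here to mark genes that lose reads as multimapping. The tables count reads per hairpin gene, so the values below do not say how many reads came from each arm.

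Mir31 (ENSMUSG00000065408.1) has no annotated gene partner on the opposite strand. It lies within exon 3 of the long noncoding RNA AL805899.1 (ENSMUSG00000117123.1), the last exon of that gene, at chr4:88909855-88910710 of GRCm38 on the same strand. Of the 61 other genes within 400 kb, 18 carry an interferon symbol, among them Ifnb1, and 0 are miRNA genes. Ifne, an interferon gene known from epithelia of the reproductive tract, is the nearest protein-coding gene, 30.4 kb downstream. Mtap, an enzyme of methionine salvage, lies 226.5 kb upstream, and Cdkn2a, which encodes the cell cycle inhibitors p16 and p19, 363.8 kb upstream. The tables hold counts of miRNA genes alone, so none of these genes has a value here.

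**Figure D1:**
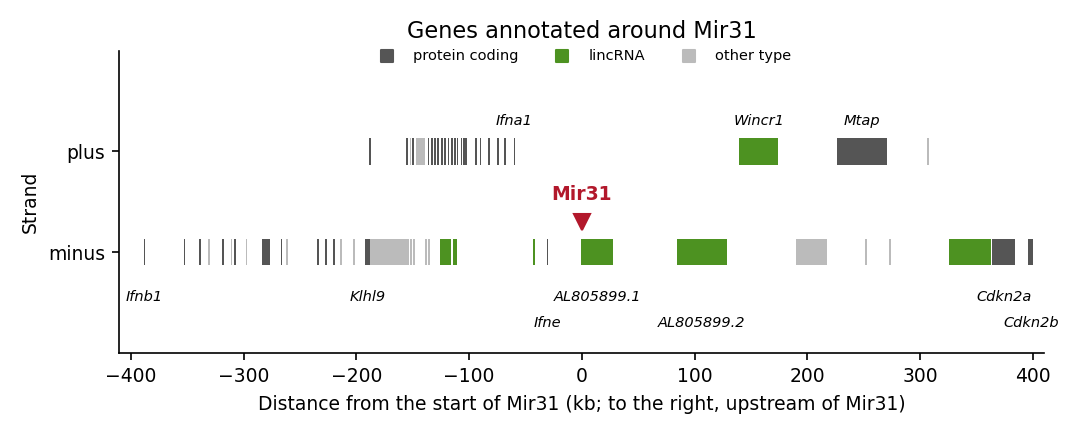
Genes annotated in GENCODE M21 around Mir31, by strand, against distance in kb from the start of Mir31. Boxes are genes, with those shorter than 1.5 kb widened to that length so that they can be seen, and the red triangle marks Mir31 inside AL805899.1, with interferon genes to its left and Cdkn2a to its right.

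Mir31 was a moderately abundant microRNA in 1 library and a low one in the other. It had 8342 reads among 6783227 sense miRNA reads in replicate 1, and 326 among 3084602 in replicate 2. These are 1229.8 CPM (Wilson 95% interval 1204 to 1256) and 106 CPM (94.8 to 118). The intervals do not overlap, but they cover counting error only, because the tables hold no molecular identifiers and PCR copies are not independent molecules. The mean was 668 ± 795 CPM (SD, n = 2), so the spread between the replicates exceeded the mean. Put as a share, 1 in 813 sense miRNA reads was Mir31 in replicate 1 and 1 in 9462 in replicate 2. Both values lie far above the level that 3 reads would give, 0.442 CPM in replicate 1 and 0.973 CPM in replicate 2. Mir31 was thus present in both libraries, and the difference is one of amount. In 2 libraries of whole gland, fewer cells that hold miR-31, less miR-31 per cell and a technical difference between the libraries cannot be told apart.

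By rank, Mir31 was number 58 in replicate 1 and number 169 in replicate 2, where 348 and 359 genes exceeded 2 CPM. By mean CPM it was number 81. Its neighbours in that order were Mir540 just above, with 626 CPM in replicate 1 and 776 CPM in replicate 2, and Mir27a just below, at 598 and 732 CPM. Mir540 belongs to the imprinted Dlk1-Dio3 region, and Mir27a to a cluster with Mir23a. Mir27a shares 20 bases with another hairpin, so its count is a lower limit. None of the 10 neighbours by mean differed from Mir31 beyond the replicate spread, since all 10 stood below it in replicate 1 and above it in replicate 2. Across all 2201 other genes, 111 changed places with Mir31 in this way, and 0 did so in the opposite way. The opposite way would need a larger fall than that of Mir31, so the choice of Mir31 fixed that 0, and nothing is read from it. Another 57 genes stood above it in both libraries, and 43 of these by more than the replicate difference of either gene.

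**Figure D2:**
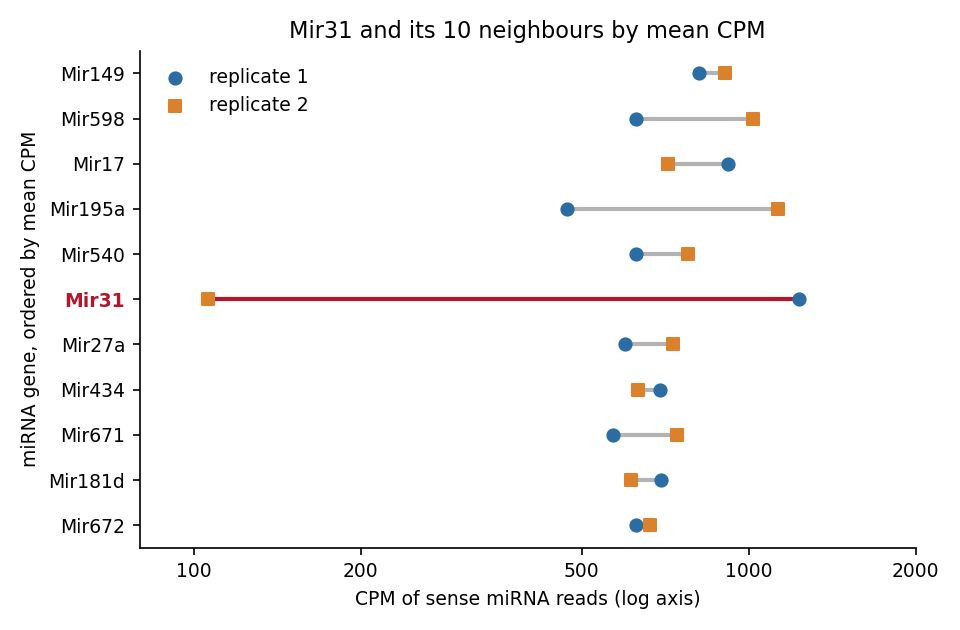
CPM in each library, on a log axis, of Mir31 and the 10 miRNA genes nearest to it in the order of mean CPM. Mir31 runs from 106 to 1229.8 CPM, and Mir195a, at 470.3 and 1129 CPM, has the widest span of the other 10.

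The neighbours by mean CPM show what this pair of libraries gave for 10 other genes of similar mean CPM. Mir672 was the closest pair of values among the 10, with 626 CPM in replicate 1 and 664 CPM in replicate 2 (1.06-fold). Mir434, a gene antisense to the imprinted Rtl1, stood at 693 and 631 CPM (1.1-fold), and Mir181d at 696 and 615 CPM (1.13-fold). Mir671 stood at 570 and 742 CPM, Mir149 at 813 and 908 CPM, and Mir598 at 628 and 1017 CPM (1.62-fold). Mir17, of the growth-promoting mir-17 to mir-92 cluster, stood at 919 and 717 CPM. On the log2(CPM + 1) scale, 1 of the 10, Mir195a of the cell cycle regulating mir-15 family, differed at least 2-fold (2.4-fold, higher in replicate 2). Of the 56 genes within a factor of 2 of the mean CPM of Mir31, itself included, 17.9% did.

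The log2 difference of Mir31 was −3.53. Without the added 1 CPM the log2 ratio was −3.54 (exact 95% interval −3.70 to −3.38, counting error only), an 11.6-fold ratio of CPM. At the share of replicate 1, replicate 2 would have held 3793 reads of Mir31 in place of 326. Among the 56 genes within a factor of 2 of its mean CPM, from 344 to 1324 CPM, Mir31 had the largest absolute log2 difference. The median of the other 55 was 0.29, their upper quartile was 0.56, and 39 of them lay within 0.5. Next after Mir31 came Mir107 at −2.10 and Mir34c at −1.60. Of the 56 genes, 17.9% differed at least 2-fold in either direction, and since Mir31 was chosen by this measure, nothing is read from its own place among them. All 55 others exceeded Mir31 in replicate 2, where the lowest of them was Mir298 at 201 CPM, and 53 of 55 stood below it in replicate 1.

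**Figure D3:**
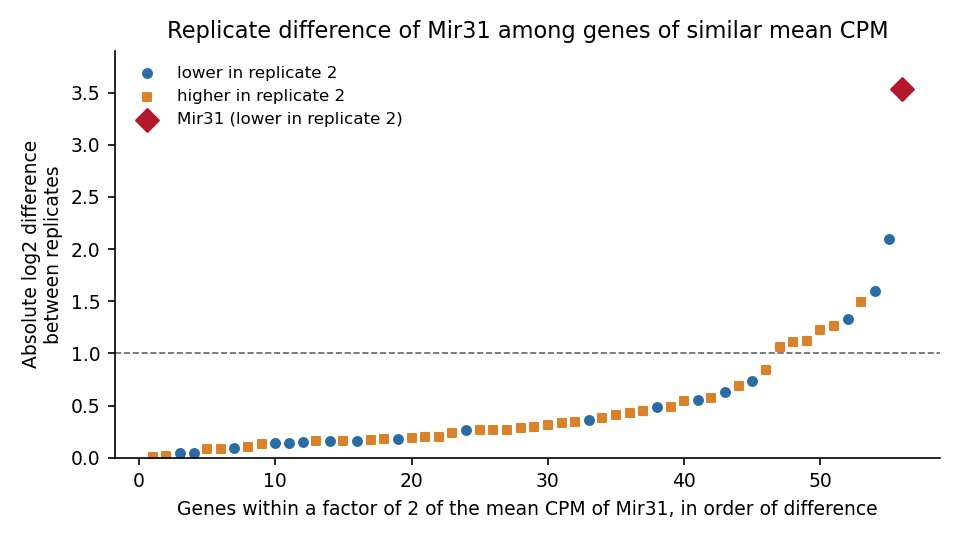
Absolute log2 difference between the replicates, in order of size, for the 56 genes within a factor of 2 of the mean CPM of Mir31. The dashed line marks a 2-fold difference, and Mir31 at 3.53 stands 1.43 above the next gene, Mir107 at 2.10.

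Over wider sets the place of Mir31 was the same, which its choice on this difference largely fixed, so nothing is read from it. It ranked number 1 by absolute difference among the 173 genes that averaged 100 CPM or more, among the 280 that averaged 10 or more, and among the 703 with any read. On the log2(CPM + 1) scale, 11.0% of the 173 genes differed at least 2-fold and 4.62% were at least 2-fold lower in replicate 2. Of the 280 genes, 10.7% passed the same limit. In replicate 2, 17 of them were higher and 13 lower, a split that became 12 and 17 with TMM factors and 8 and 17 with DESeq2 size factors. DESeq2 size factors moved the median difference of all 280 genes from 0.012 to −0.124. Their ratio came out at exactly 2, the read ratio of 28 of the 549 genes with reads in both libraries. These 28 had a median of 2 reads in replicate 1, so low counts set that ratio, whereas the totals stood at a ratio of 2.20. Relative to the median gene, the difference of Mir31 was −3.54 under the scaling used here, under TMM factors and under DESeq2 size factors. A scaling factor shifts all genes alike apart from the added 1 CPM, so this value could hardly change with it. The gene next in size among the 280 was Mir26a-1 at 2.24, a gene of the mir-26 family with 24 and 63 reads that shares 20 bases with another hairpin. At the other end of the 173 genes stood Mir301 at 2.00.

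**Figure D4:**
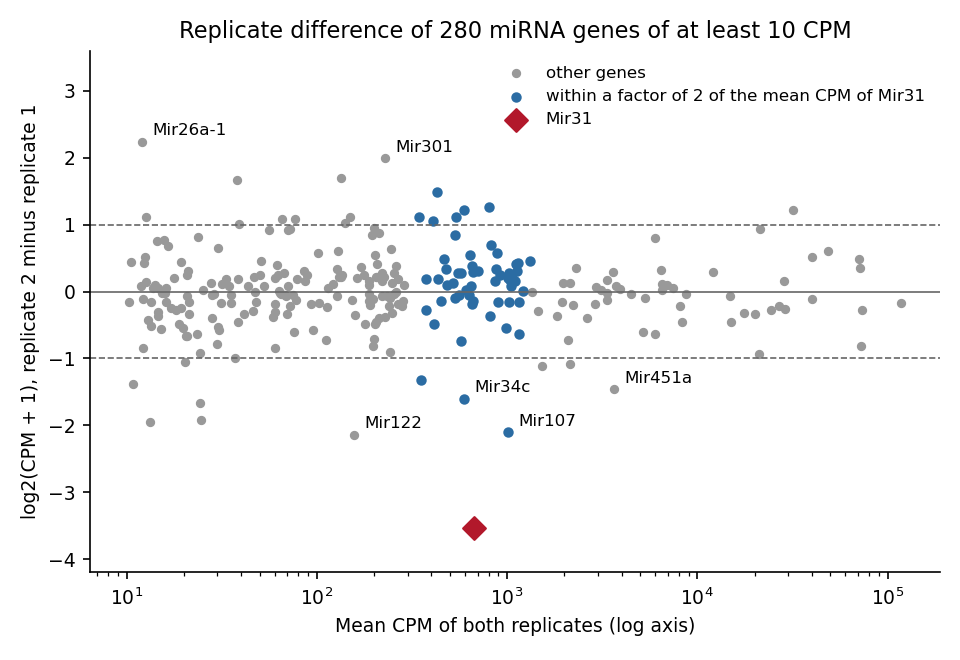
Difference in log2(CPM + 1), replicate 2 minus replicate 1, against mean CPM on a log axis for the 280 miRNA genes of at least 10 CPM. Dashed lines mark 2-fold differences, and Mir31 at −3.53 lies below the other genes, whose lowest value is −2.14 for Mir122.

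Likeness to Mir31 was measured as the gap between log2 differences in genes averaging 100 CPM or more, over 2 libraries, so the 10 genes nearest to it are by construction the 10 lowest of the others. No gene came closer than 1.39. The nearest was Mir122, the liver microRNA, with 257 CPM in replicate 1 and 57.7 CPM in replicate 2. Mir107, from an intron of the coenzyme A synthesis gene Pank1, followed at 1634 and 381 CPM, but it shares 20 bases with other hairpins and its count is a lower limit. Mir34c, a p53 target, stood at 890 and 293 CPM, and Mir34a of the same family at 2908 and 1364 CPM. Mir451a, the red cell microRNA, stood at 5351 and 1949 CPM, and Mir298, from the imprinted Nespas transcript of the Gnas locus, at 507 and 201 CPM. The remaining 4 were Mir29c (−1.12), Mir10b (−0.93), Mir708 (−0.90) and Mir126a (−0.82). All 10 are lower in replicate 2 because they were picked for that, and the differences of the 10 span −2.14 to −0.82.

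The mature sequences of 4 of these genes are shown to compare their seeds with that of miR-31-5p, taken from RefSeq on GRCm38.p6 with bases 2 to 8 in capitals.
miR-107-3p: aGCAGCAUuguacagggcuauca
miR-34a-5p: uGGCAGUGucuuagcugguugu
miR-451a: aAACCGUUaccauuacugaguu
miR-29c-3p: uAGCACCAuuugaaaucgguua
At matched positions, the seed of miR-31-5p differed from that of miR-34a-5p and miR-29c-3p at 3 of 7 bases, and from that of miR-107-3p and miR-451a at 6 of 7. The smallest difference over the mature sequences of these 10 genes that were matched in the table was 3 bases.

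The annotated neighbours of Mir31 on chromosome 4 gave little to set beside it. The nearest miRNA gene, Mir491 in the Focad gene, 789 kb away, reached 5.16 CPM in replicate 1 and 2.27 CPM in replicate 2, from 35 and 7 reads. On the other side, Mir6402 at 2463 kb had 0 reads in both libraries. Mir872, at 5755 kb, was the nearest of similar abundance, with 1007 CPM in replicate 1 and 1236 CPM in replicate 2. Over the 9 other genes of chromosome 4 of at least 10 CPM, the median difference was 0.08, from −1.09 for Mir34a to 1.49 for Mir101a. Mir101a shares 20 bases with another hairpin, so its count is a lower limit. Of these 9, 2 were at least 2-fold higher in replicate 2 and 1 was at least 2-fold lower. Over all 280 genes of at least 10 CPM, 17 were higher and 13 lower by this limit, 10.7% either way. Nothing is read from so few genes.

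Base composition was compared as a further feature that the choice of Mir31 did not use. Of its 106 hairpin bases 53 are G or C, and 81 of the 173 genes of at least 100 CPM have a lower share of G and C. The 20 genes nearest in this share, from 48.6% to 51.5%, had a median difference of 0.10, and 0 of them were at least 2-fold lower in replicate 2, a count near the 4.62% over the 173 genes. In the other direction, 2 of the 20 were at least 2-fold higher in replicate 2, beside 11 of the 173 genes. Nothing is read from so few genes. The values of the 20 ran from −0.90, for Mir708, to 2.00. Across the 173 genes, the difference followed the hairpin's share of G and C weakly (Pearson's r 0.19, Spearman's rho 0.25). Those points come from the same pair of libraries and are not independent, and the part of base composition in the difference of Mir31 was not tested. The share in the mature arms of Mir31 is 54.5% for miR-31-5p and 43.5% for miR-31-3p.

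Of 13 marker lists of cell types and responses, the endothelial, epithelial, leukocyte and NF-kB lists cover the known settings of Mir31. The summed level of the endothelial list was 96532 CPM in replicate 1 and 56194 CPM in replicate 2, a log2 difference of −0.78. Nearly all of it came from Mir126a, the microRNA of the Egfl7 gene that supports vessel growth, at 92610 and 52519 CPM. Mir100 stood at 3512 and 3212 CPM and Mir92-1 at 409 and 462 CPM, so the other endothelial genes of at least 10 CPM differed less. The median of the 3 was −0.13, beside 0.01 for all 280 genes. On the log2(CPM + 1) scale 0 of 3 differed at least 2-fold, beside 10.7% of the 280 genes. Mir92-1 shares 20 bases with another hairpin, so its count is a lower limit. The endothelial sum was lower in the same library as Mir31, and its part in the result was not tested.

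The epithelial sum went the other way, from 676 CPM in replicate 1 to 1000.5 CPM in replicate 2. Mir203, which holds keratinocytes out of the cell cycle, stood at 386 and 542 CPM, and Mir182, known from sensory epithelia, at 136 and 264 CPM. Some members were lower in replicate 2. Mir200c, which keeps epithelial cells from a mesenchymal state, stood at 23.7 and 15.9 CPM, Mir429 of the same family at 9.58 and 3.24 CPM, and Mir96 at 6.63 and 3.24 CPM. The median of the 4 genes of at least 10 CPM was 0.55, and 0 of 4 differed at least 2-fold, a count near the 10.7% over all genes. The squamous marker Mir205 had 1 read in each library. None of the 10 epithelial genes was at 0 reads in both libraries.

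The leukocyte sum was 2504 CPM in replicate 1 and 1949 CPM in replicate 2, with a median of 0.03 over 6 genes and 0 of 6 at least 2-fold apart. Mir142, made in all blood cell lineages, stood at 249 and 282 CPM, and the lymphocyte gene Mir150 at 162 and 191 CPM, while Mir342 stood at 482 and 344 CPM. The list also holds Mir146, a feedback inhibitor of NF-kB signalling, at 1412 and 912 CPM, which shares 20 bases with another hairpin, so its count is a lower limit. The NF-kB and inflammation sum was 5494 and 4811 CPM, with a median of −0.05 over 6 genes and 0 of 6 at least 2-fold apart. Mir21a stood at 3090 and 3166 CPM and Mir155, a gene induced in activated immune cells, at 161 and 147 CPM. Mir146 is in this list too, and Mir221 stood at 719 and 429 CPM, while Mir222 stood at 73.1 and 83.6 CPM. Mir223, which is in both lists, was higher in replicate 2, at 38.3 and 73.6 CPM, a log2 difference of 0.92. Both counts of 0 of 6 are near the 10.7% over all genes.

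Of the 13 sums, 8 were lower and 5 were higher in replicate 2, from −2.14 to 1.13 in log2. The liver list, Mir122 alone, was lowest. The erythroid sum was 5557 CPM in replicate 1 and 2151 CPM in replicate 2, with 1 of 3 genes of at least 10 CPM at least 2-fold lower, beside 4.64% of all 280 genes, and nothing is read from so few genes. That gene was Mir451a, while Mir144, made from the same transcript, stood at 191 and 187 CPM. The mesenchymal sum was 598 CPM in replicate 1 and 1315 CPM in replicate 2. Of its 3 genes of at least 10 CPM, Mir214 and Mir152 were at least 2-fold higher in replicate 2, and Mir199b, which shares 20 bases with another hairpin, was at least 2-fold lower. Over all 280 genes 10.7% differed at least 2-fold in either direction, and nothing is read from 3 genes. The part of these lists in the difference of Mir31 was not tested.

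The neuroendocrine sum, led by Mir375 of the adrenal medulla and other neuroendocrine tissue, was 63615 CPM in replicate 1 and 87243 CPM in replicate 2. The smooth muscle sum was 29493 and 25629.9 CPM, the kidney sum 330.2 and 305 CPM, and the adipose sum 3200.0 and 3575 CPM. The list of genes known to respond to adrenocorticotropic hormone, the pituitary signal for adrenal steroid output, summed to 1951 and 2736 CPM, with Mir214 as the 1 of 7 genes at least 2-fold apart. In the adipose list, Mir193b stood at 50 and 24.6 CPM, 2.03-fold as a ratio of CPM and −0.99 on the log2(CPM + 1) scale, just inside the 2-fold limit, which 0 genes of this list passed. In the neuroendocrine, smooth muscle and kidney lists, 0 genes of at least 10 CPM differed at least 2-fold. Over all 280 genes of at least 10 CPM 10.7% did, and nothing is read from the counts of these short lists. Striated muscle genes summed to 5.45 and 4.21 CPM, and 7 of the 9 had 0 reads in both libraries.

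**Figure D5:**
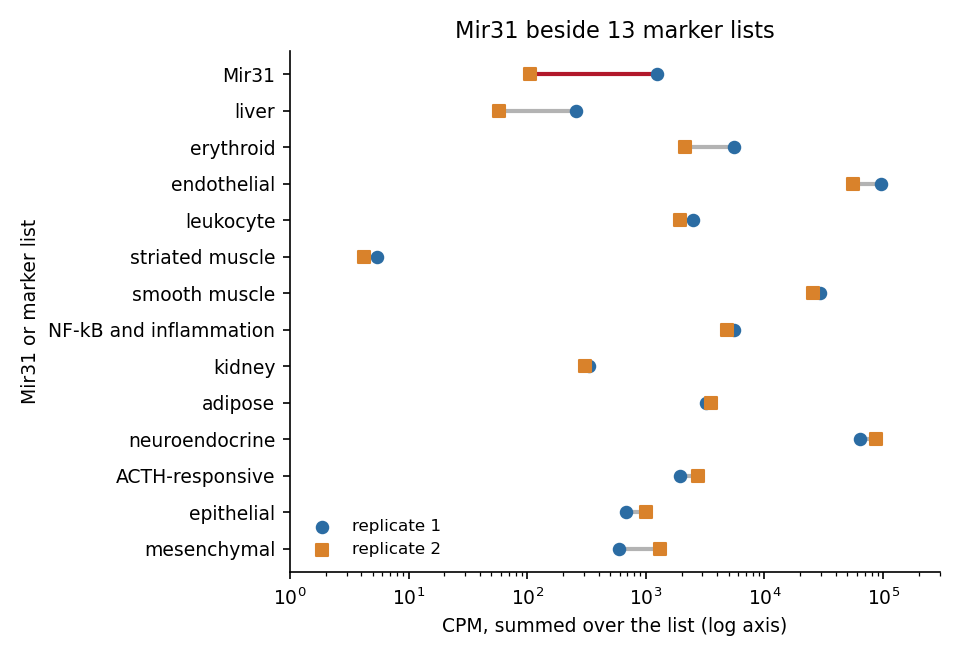
CPM in each library, on a log axis, of Mir31 and summed over each of 13 marker lists, ordered by their log2 difference. Blue circles are replicate 1 and orange squares replicate 2, and among the lists the liver and erythroid sums lie furthest to the left of replicate 1 in replicate 2.

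Whole-library measures differed less than Mir31 did, and their part in its difference was not tested. Replicate 1 held 13209343 reads and replicate 2 6482170, and sense reads of miRNA genes made up 51.4% and 47.6% of them. Unmapped reads made up 14.7% and 16.5%, multimapping reads 30.3% and 32.1%. Per 1000000 reads of any kind, Mir31 had 632 in replicate 1 and 50.3 in replicate 2. The column for both strands gave the same 8342 and 326 reads of Mir31, and the opposite strand held 0 in each library.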

How the data were processed

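MicroRNA sequencing of adrenal gland gave 1 table for each of 2 libraries of 1 group. The authors deposited read counts per miRNA gene of GENCODE M21 on mm10, per their accompanying text files. For aligner, adapter removal and mismatches, nothing is stated in the sources used here. Columns carry no header, and their layout was read as both strands, sense and opposite strand. Multimapping reads are assigned to no gene. All 2202 identifiers were found in the GENCODE M21 annotation.

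Sense counts were scaled to CPM of all sense miRNA reads, 6783227 in replicate 1 and 3084602 in replicate 2. Differences used log2(CPM + 1). With 1 group and a gene selected on its difference, no test was run, and a gene was counted as different at 2-fold. Intervals are Wilson (shares) and Clopper-Pearson (ratios), both 95%. Alternatives used edgeR 4.0.16 TMM factors, DESeq2 1.42.0 size factors, other totals, pseudocounts, minimums and windows. The hairpin was folded with RNAfold 2.7.2. Calculations ran in Python 3.11.15 and were tested on simulated data.

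Mir31, the marker lists and the rules were chosen with earlier results of these data known. Named genes were the 5 next above and below Mir31 by mean CPM, the 10 closest in difference, the 3 nearest miRNA genes on each side, those with seeds within 1 base, and up to 4 highest members of each list. Mir486b was matched to its current symbol by synonym. Other genes named were chosen after their values were seen.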

Additional observations from a re-analysis of the deposited data

How the results depend on the processing

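The log2 difference of Mir31 stayed between −3.66 and −3.45 over 7 alternatives, namely TMM factors, DESeq2 size factors, all reads as the total, a total without the 10 most abundant genes, the column for both strands, and pseudocounts of 0.5 and 5 CPM. Its absolute difference ranked number 1 in all 12 windows and scalings tried, a place that its choice on this difference largely fixed. The next largest ranged from 1.6 to 2.23. The mean level was 1614 CPM with a total that left out the 10 most abundant genes, because that total is smaller. Leaving out 1 replicate gave 106 to 1229.8 CPM, so the mean rests on replicate 1. The count of genes at least 2-fold apart was 30 as reported, 19 with a minimum mean of 100 CPM and 58 among genes with at least 1 read, since fewer or more genes enter. The other 8 alternatives gave 22 to 43. Of the 24 alternative medians of the marker lists, 3 turned sign and 10 more moved by over 1.5 times. At a minimum mean of 100 CPM, where fewer genes enter, the adipose median of −0.41 became 0.17, the leukocyte median of 0.03 became −0.13, the erythroid median of −0.15 became −0.74 and the NF-kB median of −0.05 became −0.38. With DESeq2 size factors, whose ratio rests on genes of few reads, the leukocyte median was −0.11. No paired analysis was possible because there is 1 group. With 2 libraries, 1 of them low, these data do not show which level of Mir31 is usual for this tissue.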
